A study of Homo sapiens with 12 samples.

Results

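The collagen genes are the 44 rows of the count table, of 44659 in all, whose symbol consists of COL, a type number, A and a chain number. The 15 other rows built on such a symbol were left out. They were antisense, divergent and pseudogene rows and 6 further rows into which the table splits COL11A2. The members encode 11 fibrillar chains, 6 chains of type IV collagen, the network former of basement membranes, and 27 chains of other types.

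Expression was measured by RNA-seq in A375, an established human melanoma cell line, in 2 experiments with 3 libraries per group. All cells were grown in medium with 2 mM glutamine before treatment. In the MAPKi experiment, cells received for 24 h either the BRAF inhibitor vemurafenib (500 nM) together with the MEK inhibitor cobimetinib (500 nM), here MAPKi, or the solvent DMSO, both in 2 mM glutamine. In the Gln depletion experiment, cells were washed and kept for 24 h in glutamine-free medium (Gln-depleted) or in medium with 2 mM glutamine (CTRL medium). The labels place the MAPKi experiment in sequencing batch 2 and the Gln depletion experiment in sequencing batch 1, so levels were compared only within an experiment. Within Gln depletion, replicate 1 of both groups formed experimental batch 1, and replicates 2 and 3 batch 2. Libraries held 31056296 to 40071368 counted reads, of which 0.116 to 0.213% were on collagen genes. The labels do not say that replicates were separate cultures, so p-values measure the spread between these libraries, which may be technical. All samples come from 1 cell line in culture. RNA is called cytoplasmic in the labels and total in the methods of the study.

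Collagens are extracellular proteins made of 3 chains wound into a triple helix, which needs a glycine in each Gly-X-Y triplet of residues and is stabilised by hydroxylated prolines. Fibrillar collagens (types I, II, III, V, XI, XXIV and XXVII) assemble into fibrils, and fibril-associated collagens (FACIT, such as types IX, XII, XIV, XVI and XIX) attach to them. Type IV chains assemble as α1α1α2, α3α4α5 or α5α5α6 molecules into the basement membrane network. Tumour cells, melanoma cells included, produce part of the matrix around them, while fibroblasts are the main source of fibrillar collagens in skin.

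The repeat that defines the family is visible in the coding sequences. The first 15 codons of the longest uninterrupted glycine repeat are shown for the chain pairs whose levels parted in the MAPKi experiment, 5′ to 3′ from the GENCODE transcripts on GRCh38, with glycine codons in capitals and codons counted from the start codon.
COL4A1, codons 43 to 57: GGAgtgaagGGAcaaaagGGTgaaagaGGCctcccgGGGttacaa
COL4A2, codons 782 to 796: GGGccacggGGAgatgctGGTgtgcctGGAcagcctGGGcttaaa
COL5A1, codons 559 to 573: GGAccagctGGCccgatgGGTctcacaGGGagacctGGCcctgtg
COL5A2, codons 213 to 227: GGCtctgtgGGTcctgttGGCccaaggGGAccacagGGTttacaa
Over the 44 members, a median of 24.3% of codons encoded glycine and 16.6% proline, against medians of 6.33% and 5.51% in 19589 other protein-coding genes. The longest uninterrupted repeat had a median of 338 triplets in fibrillar chains, but 216 in COL24A1 and 217 in COL27A1. It was shorter in type IV chains (median 41 triplets), whose helix is broken by interruptions, and in the other types (median 56).

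Per unit of transcript length, type IV and FACIT chains led the family. In DMSO, the level in RPKM (reads scaled by transcript length and library size) was 117 ± 1.07 (SD) for COL4A2, 78.1 ± 2.90 for COL9A3, a chain of the FACIT type IX, and 68.9 ± 0.28 for COL4A1. The next levels were 19.3 ± 0.23 for COL19A1, 17.7 ± 0.78 for COL6A1, 9.37 ± 0.39 for COL5A2 and 6.25 ± 0.56 for COL6A2, so that neighbours in this order differed by more than their SDs. The same 7 genes had the highest levels in CTRL medium, where COL4A2 (84.9 ± 36.9) and COL9A3 (74.8 ± 15.6) overlapped. In MAPKi libraries COL9A3 led with 163 ± 22.1 RPKM, followed by COL4A2 with 97.8 ± 12.1, COL4A1 with 32.9 ± 3.02 and COL5A2 with 27.8 ± 2.45.

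Collagen I and III, the main fibrillar collagens of fibroblasts, were at or near 0 but for COL1A1. COL3A1, which ends 19151 bases from COL5A2 on chromosome 2, and the transmembrane COL23A1 had 0 reads in all 12 libraries, which allows at most 0.0749 to 0.0966 CPM in a library, counting error only. COL1A2 had 5 reads over the 12 libraries, while its partner chain COL1A1 had 28.8 to 39.7 normalized counts in DMSO. Another 13 members had 1 to 81 reads in all, with at most 20 in a library: COL4A6, COL6A5, COL6A6, COL8A2, COL10A1, COL11A2, COL17A1, COL20A1, COL21A1, COL22A1, COL25A1, COL26A1 and COL28A1. These 16 had a mean normalized count under 10 in both experiments and were not tested. COL4A3 was tested only in the Gln depletion experiment, which left 27 members tested with MAPKi and 28 with Gln depletion.

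The make-up of collagen reads differed between MAPKi and DMSO. Fibrillar genes took 11.6, 12.4 and 12% of collagen reads in the MAPKi libraries and 4.60, 4.81 and 4.82% in DMSO. Most of these fibrillar reads were on COL5A2, with 7209, 5851 and 6909 reads against 2011, 2242 and 2421. Every other fibrillar gene had at most 407 reads in a library of this experiment, so the fibrillar share mainly follows COL5A2. Type IV genes took 51.1, 50.4 and 51.4% against 66.8, 67.6 and 67.4%. The other types took 36.6 to 37.3% against 27.6 to 28.6%. The groups did not overlap for any class, while the share of all reads that fell on collagens overlapped (0.162 to 0.189% and 0.181 to 0.184%). With Gln depletion, the fibrillar share was 2.22, 3.66 and 3.15% against 4.49, 5.33 and 4.59% in CTRL medium, again without overlap. The other types took 39.8, 55.3 and 50.5% against 29.4, 38.6 and 37.3%, higher without overlap. Type IV genes took 58.0, 41.1 and 46.4% against 66.1, 56.1 and 58.1%, overlapping but lower in all 3 pairs. Such shares depend on each other, and COL4A1 and COL4A2 alone held 40.6 to 66.9% of collagen reads in a library.

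**Figure D1:**
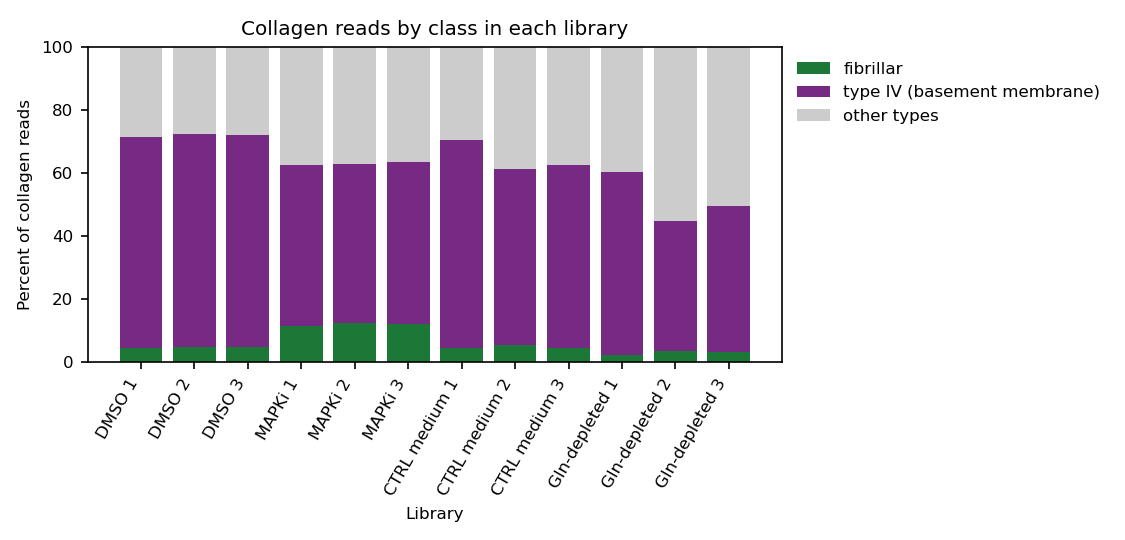
Percent of collagen reads (vertical axis) on fibrillar, type IV and other collagen genes in each of the 12 libraries (one bar per library). The fibrillar share lies between 11.6 and 12.4% in MAPKi libraries and between 4.60 and 4.82% in DMSO libraries. Most fibrillar reads in both of these groups are on COL5A2.

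The MAPKi experiment asked which mRNAs respond to BRAF and MEK inhibition. Of the 27 collagen genes tested, 8 rose and 8 fell by more than 1.5-fold and 11 passed in neither direction. A gene was called where its adjusted p (Benjamini-Hochberg over all 15975 genes tested) did not exceed 0.05 in the edgeR quasi-likelihood test of a change beyond 1.5-fold. Over all genes, 16.4% were called higher and 17.4% lower. Without the fold threshold 12 members were higher and 10 lower, where all genes gave 36.4 and 35.3%. The median log2 fold change was 0.38 over the 27 members and 0.01 over all genes. Both directions occurred in each class: 3 of 8 tested fibrillar genes rose and 3 fell, 1 of 4 type IV genes rose and 1 fell, and 4 of 15 other genes rose and 4 fell. In a culture, fewer cells expressing a gene and less RNA of it per cell cannot be told apart. Values below are normalized counts (TMM), in the order of replicates 1 to 3, and log2 fold changes carry their standard error.

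**Figure D2:**
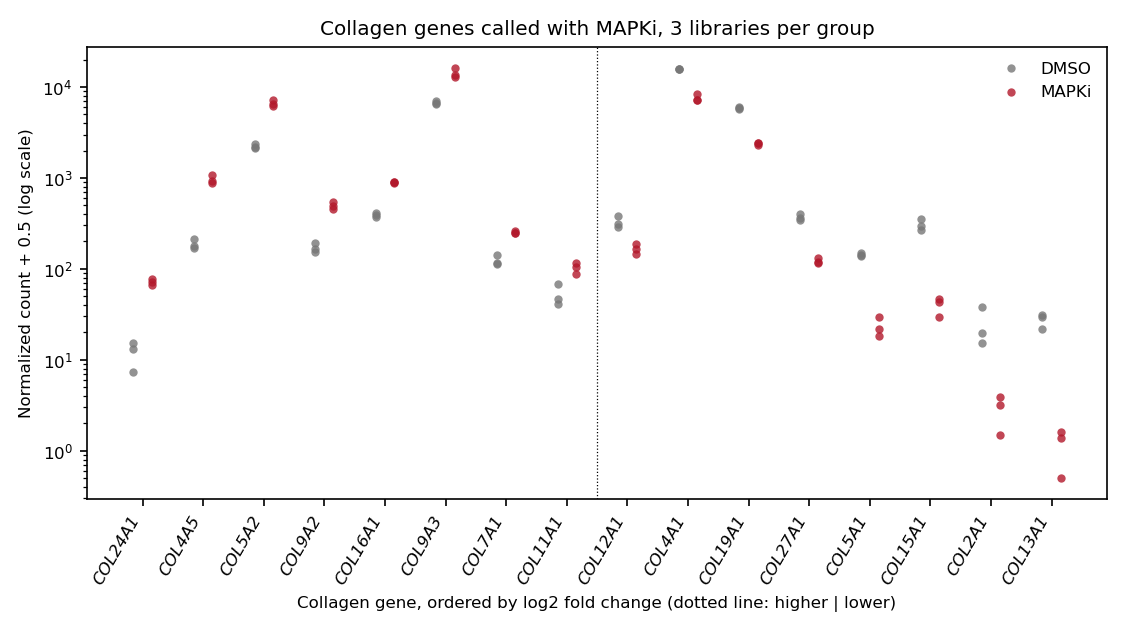
Normalized count plus 0.5 (log axis) of the 16 collagen genes called with MAPKi, each point 1 library, grey for DMSO and red for MAPKi. The 8 genes left of the dotted line were higher and the 8 to its right lower with MAPKi. In each of the 16 the 3 MAPKi libraries lie on one side of the 3 DMSO libraries. This adds no support, since the genes were called in these same libraries.

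Among fibrillar genes, the type V chains moved in opposite directions. COL5A2 (chr2:189031898-189225312, minus strand), the α2 chain of the collagen that starts fibril assembly, had 7254, 6551 and 6158 normalized counts with MAPKi and 2145, 2198 and 2342 in DMSO. All MAPKi libraries were above all DMSO libraries, a 2.98-fold rise (log2 fold change 1.58 ± 0.07, edgeR quasi-likelihood test, Benjamini-Hochberg adjusted p = 1.43e-07). COL5A1 (chr9:134641803-134844843, plus strand), the α1 chain with which it forms the common type V molecule, had 21.1, 29.1 and 17.8 with MAPKi and 147, 143 and 139 in DMSO. Here every MAPKi library was below, a 6.32-fold fall (log2 fold change -2.66 ± 0.20, adjusted p = 3.67e-06 in the same test). The α3 chain gene COL5A3 had 210.3, 195 and 232 against 119, 115 and 137, without overlap, and a log2 fold change of 0.78 ± 0.12 that passed against no change but not against a fold of 1.5.

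COL24A1 and COL27A1 encode the fibrillar chains whose longest uninterrupted repeat is 216 and 217 triplets, and they too moved in opposite directions. COL24A1 had 71.4, 66.1 and 77.5 normalized counts with MAPKi against 14.9, 12.7 and 6.77 in DMSO (log2 fold change 2.64 ± 0.28). COL27A1 had 119.7, 116 and 130.1 against 362, 399 and 342 (log2 fold change -1.59 ± 0.10). The groups did not overlap for either gene. COL2A1, the main collagen of cartilage, fell from 14.9, 37.3 and 19.3 in DMSO to 1.01, 3.36 and 2.67 with MAPKi. These are 72 reads in all DMSO libraries and 7 in all MAPKi libraries, a ratio of 10.4 (exact 95% interval 4.81 to 26.9, counting error only), and without DMSO replicate 2, the highest library, the gene fell below the filter and was not tested. COL11A1, which joins type V and II fibrils, rose with log2 fold change 1.00 ± 0.22 (ranges 86.2 to 117 against 40.2 to 67.2), and its call was lost without MAPKi replicate 1, MAPKi replicate 3, DMSO replicate 2 or DMSO replicate 3. COL1A1 was at 55.3, 63.8 and 62.4 against 28.8, 32.3 and 39.7 and passed only without the fold threshold (log2 fold change 0.84 ± 0.19).

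Type IV genes lie in head-to-head pairs that start from a shared region and are transcribed away from each other. The windows from 250 bases before to 50 after the RefSeq start site (GRCh38.p14) are shown for 2 pairs. Their start sites lie 127 bases (COL4A1 and COL4A2) and 380 bases (COL4A5 and COL4A6) apart, and the windows overlap by 226 and 121 bases. For COL4A6, which has more than 1 listed window, the one nearest COL4A5 was taken. The windows of COL4A3 (chr2:227164374-227164673) and COL4A4 (chr2:227164156-227164455) also overlap and are not printed. Capitals mark CCAAT boxes (CCAAT or ATTGG) and GC boxes (GGGCGG or CCGCCC) on either strand.
COL4A1 (chr13:110307108-110307407, minus strand): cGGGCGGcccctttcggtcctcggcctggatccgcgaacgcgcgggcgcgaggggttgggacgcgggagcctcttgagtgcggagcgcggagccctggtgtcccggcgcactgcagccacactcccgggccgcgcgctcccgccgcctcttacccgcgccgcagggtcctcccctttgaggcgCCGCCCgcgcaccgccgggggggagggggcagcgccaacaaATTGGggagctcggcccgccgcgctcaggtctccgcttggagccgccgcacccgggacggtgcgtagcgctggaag
COL4A2 (chr13:110307034-110307333, plus strand): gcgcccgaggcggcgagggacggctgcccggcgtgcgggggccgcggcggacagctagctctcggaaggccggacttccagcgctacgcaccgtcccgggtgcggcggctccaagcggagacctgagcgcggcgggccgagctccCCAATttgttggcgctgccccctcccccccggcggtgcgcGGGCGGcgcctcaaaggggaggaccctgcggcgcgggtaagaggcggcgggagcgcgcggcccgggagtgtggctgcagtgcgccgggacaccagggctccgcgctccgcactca
COL4A5 (chrX:108439588-108439887, plus strand): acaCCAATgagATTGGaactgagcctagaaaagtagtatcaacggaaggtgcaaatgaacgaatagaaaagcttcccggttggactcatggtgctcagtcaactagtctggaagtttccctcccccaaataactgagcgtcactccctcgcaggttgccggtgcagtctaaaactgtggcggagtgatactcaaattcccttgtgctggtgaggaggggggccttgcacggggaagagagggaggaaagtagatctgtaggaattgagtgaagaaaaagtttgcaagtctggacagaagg
COL4A6 (chrX:108439409-108439708, minus strand): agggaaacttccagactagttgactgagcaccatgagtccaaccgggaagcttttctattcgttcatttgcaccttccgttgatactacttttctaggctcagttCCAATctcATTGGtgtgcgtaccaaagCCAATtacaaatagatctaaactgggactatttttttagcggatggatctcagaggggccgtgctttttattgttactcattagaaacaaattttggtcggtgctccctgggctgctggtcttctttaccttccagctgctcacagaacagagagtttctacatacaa
The COL4A1 and COL4A2 windows held 1 CCAAT match each, the same site read from opposite strands, and 2 and 1 GC box matches. The printed COL4A5 and COL4A6 windows held 2 and 3 CCAAT matches and no GC box match. Another listed COL4A6 window (chrX:108438373-108438672), not printed, held no CCAAT match and 1 GC box match. Of 35116 RefSeq promoter windows of this length, 34.6% held CCAAT and 44.95% GGGCGG on either strand. A window was listed for 32 of the 44 members.

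COL4A1 (chr13:110148963-110307157, minus strand) and COL4A2 (chr13:110305812-110513209, plus strand) encode the chains of the ubiquitous α1α1α2 network. COL4A1 had 8290.2, 7193 and 7167 normalized counts with MAPKi and 15709, 15596 and 15749 in DMSO, a 2.08-fold fall (log2 fold change -1.05 ± 0.06) whose call was lost when all 12 libraries were fitted together. COL4A2 had 25105, 20567 and 20741 and 26282, 25835 and 26750.1, with all MAPKi libraries lower but by a log2 fold change of only -0.25 ± 0.08, which passed against no change and not against 1.5-fold. Antisense genes share 1.47% of COL4A2's exon bases, and whether reads were counted by strand is not given in the sources used here.

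COL4A5 (chrX:108439838-108697545, plus strand), the α5 chain of the kidney and skin networks, showed the opposite. It had 1088, 929 and 888 normalized counts with MAPKi and 177, 171 and 209.9 in DMSO, a 5.20-fold rise (log2 fold change 2.38 ± 0.11, edgeR quasi-likelihood test, Benjamini-Hochberg adjusted p = 2.22e-07). Its head-to-head neighbour COL4A6 stayed too low to test, at 16.1, 8.96 and 7.13 against 1.07, 4.90 and 4.84. In the pair COL4A3 and COL4A4, COL4A4 was at 259.6, 239.6 and 230.0 against 221, 258 and 243 (log2 fold change 0.01 ± 0.10), with overlapping groups, and COL4A3 at 1.01, 6.72 and 6.24 against 12.8, 8.82 and 14.5, below the filter.

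Among FACIT chains, which decorate fibrils, 3 rose and 2 fell. COL9A3 (chr20:62816244-62841159, plus strand) rose from 7104, 6565 and 6709 normalized counts in DMSO to 16374, 13424 and 12988 with MAPKi (log2 fold change 1.07 ± 0.09), and TCFL5 shares 6.21% of its exon bases. Its partner COL9A2 rose from 151, 165 and 192 to 547, 495 and 455 (log2 fold change 1.56 ± 0.12). The third chain, COL9A1, was at 16.1, 11.2 and 3.57 with MAPKi against 21.3, 18.6 and 15.5, and these groups overlapped.

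COL16A1, found near basement membranes and fibrils, rose from 392, 374 and 415 to 894, 896 and 882 (log2 fold change 1.18 ± 0.06). COL19A1 (chr6:69866556-70212468, plus strand), a basement membrane zone collagen, fell from 5973, 5781 and 5873 to 2444, 2323 and 2395 (log2 fold change -1.30 ± 0.04, edgeR quasi-likelihood test, Benjamini-Hochberg adjusted p = 2.66e-08). Its gene ends 3571 bases from that of COL9A1, which lies on the opposite strand. COL12A1 fell with log2 fold change -0.98 ± 0.14 (ranges 146 to 187 against 291 to 383), a call lost with DESeq2 and when all 12 libraries were fitted together. COL14A1 was at 51.3, 45.9 and 38.3 against 82.1, 76.5 and 63.9, lower without overlap, and passed only without the fold threshold (log2 fold change -0.71 ± 0.19).

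Of the remaining types, the transmembrane COL13A1, a collagen of cell-matrix junctions, had 2 reads in all MAPKi libraries and 81 in DMSO. The ratio is 41.1 (exact 95% interval 11 to 345, counting error only), with normalized counts of 0, 1.12 and 0.89 against 30.9, 29.4 and 21.3. COL15A1 (chr9:98943179-99070792, plus strand), a multiplexin of the basement membrane zone, fell from 292, 269 and 350.2 to 46.3, 29.1 and 42.8 (log2 fold change -2.94 ± 0.19). Every MAPKi library of both genes was below every DMSO library. COL18A1, the other multiplexin, had 26.2, 14.6 and 21.4 against 0, 27.4 and 2.90 with overlap, and SLC19A1 shares 28.9% of its exon bases. COL7A1, which forms the anchoring fibrils of skin, rose with log2 fold change 1.04 ± 0.12 (ranges 248 to 262 against 112 to 140.3), a call likewise lost in the fit of all 12 libraries.

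The type VI genes, whose products form beaded filaments, did not pass the fold threshold. COL6A1 was at 3009.6, 2394 and 2278 against 2723, 2472 and 2561 (log2 fold change -0.01 ± 0.10) and COL6A3 at 44.3, 15.7 and 33.9 against 18.1, 19.6 and 23.2, both with overlap. COL6A2 was above DMSO in all 3 libraries, at 1104, 948 and 878 against 816, 672 and 761, with a log2 fold change of 0.38 ± 0.10 that passed without the fold threshold. COL8A1, a network former made by endothelial and other cells, was at 302, 383 and 268 against 147, 198 and 183 (log2 fold change 0.85 ± 0.16), likewise past the test of no change only.

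The 6 further COL11A2 rows, added up, held 125, 16 and 66 reads in MAPKi and 21, 11 and 2 in DMSO, against 5, 3 and 4 and 20, 2 and 0 on the COL11A2 row itself. How reads were split among these rows is not given in the sources used here, so no direction was read for COL11A2.

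Chains that assemble together changed in their read ratio. The ratio of COL4A1 to COL4A2 reads was 0.330, 0.350 and 0.346 with MAPKi and 0.598, 0.604 and 0.589 in DMSO. The ratio of COL5A1 to COL5A2 was 0.0029 to 0.0044 with MAPKi and 0.0595 to 0.0686 in DMSO, and that of COL5A3 to COL5A2 was 0.0290 to 0.0376 against 0.0522 to 0.0587. The ratio of COL6A1 to COL6A2 was 2.52 to 2.73 against 3.34 to 3.68, and that of COL9A2 to COL9A3 was 0.0334 to 0.0369 against 0.0213 to 0.0286. The ranges did not overlap in any of these 5 ratios, the first 4 being lower and the last higher with MAPKi. With 3 libraries against 3, an exact two-sided permutation test cannot give a p below 0.1, which is what each of them gives. These are ratios of reads not scaled by length and only their change between groups is compared. All but COL6A1 to COL6A2 hold a chain called in these same libraries, so their separation is not independent of those calls. How often ratios of other gene pairs separated was not counted.

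In the Gln depletion experiment, COL5A3 to COL5A2 was 0.514, 0.520 and 0.312 in Gln-depleted libraries and 0.0540, 0.0556 and 0.102 in CTRL medium. COL6A1 to COL6A2 was 1.83, 1.47 and 1.76 against 3.40, 3.11 and 3.35, and COL9A2 to COL9A3 was 0.0086 to 0.0162 against 0.0242 to 0.0307. None of these 3 overlapped (exact two-sided permutation p = 0.1 each, the smallest an unpaired test of 3 against 3 allows). COL5A3 was itself called in these libraries, as given below, so its ratio is not independent of that call. COL4A1 to COL4A2 was 0.538, 0.659 and 0.708 against 0.629, 0.752 and 0.741, with overlap between the groups but lower in all 3 pairs. COL5A1 to COL5A2 was 0.173, 0.0771 and 0.0901 against 0.103, 0.101 and 0.159, higher in pair 1 and lower in the other two. COL5A3 to COL5A2 and COL9A2 to COL9A3 thus parted in opposite directions in the 2 experiments, and COL6A1 to COL6A2 was lower in both.

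**Figure D3:**
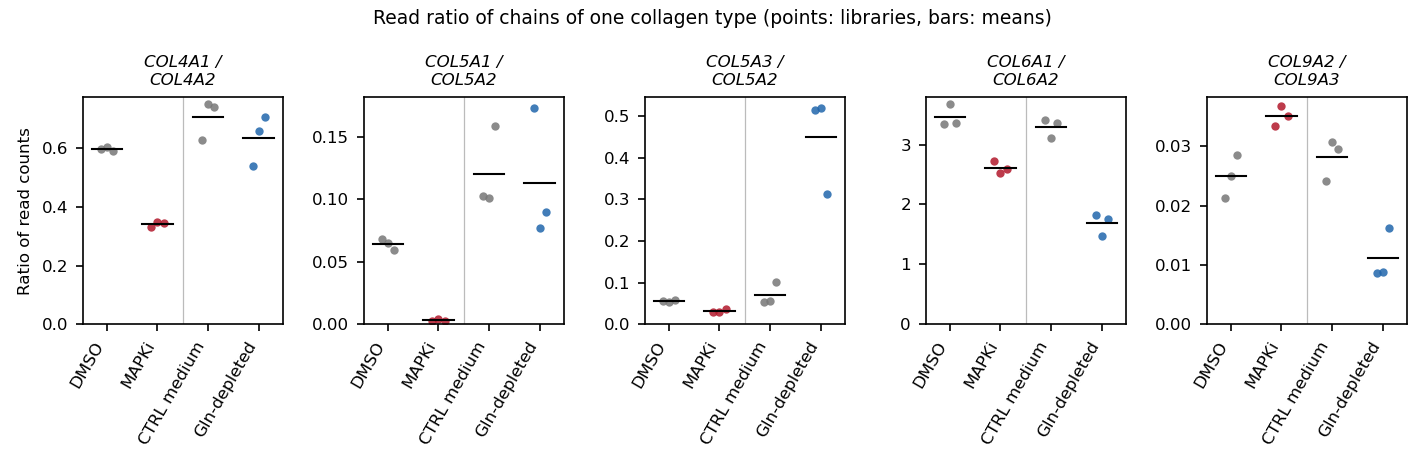
Ratio of reads (vertical axes, from 0) for 5 pairs of chains of one collagen type in the 4 groups, each point 1 library and each bar the mean of 3. COL4A1 to COL4A2 is 0.330 to 0.350 with MAPKi and 0.589 to 0.604 in DMSO, and COL5A3 to COL5A2 is 0.312 to 0.520 in Gln-depleted and 0.0540 to 0.102 in CTRL libraries.

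Genes that make, export and process collagens were counted beside the chains, in 5 lists. Of the 17 tested genes for folding and hydroxylation, 1 rose and 4 fell with MAPKi. PLOD2, a lysyl hydroxylase, rose (log2 fold change 1.17 ± 0.08), while the collagen galactosyltransferases COLGALT1 (-1.29 ± 0.07) and COLGALT2 (-0.91 ± 0.10) and the prolyl hydroxylase subunit P4HA1 (-0.83 ± 0.04) fell. FKBP14, which also fell, was not called by DESeq2. Of 10 procollagen export genes, SAR1B rose (0.69 ± 0.05, not called by DESeq2) and the coat components SEC24D (-1.06 ± 0.07) and SEC13 (-0.84 ± 0.05) fell.

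Of 8 processing and cross-linking genes, 1 rose and 3 fell. BMP1, the protease that removes procollagen C-propeptides, rose (1.57 ± 0.08). The lysyl oxidase family members LOXL4 (-4.70 ± 0.08), LOXL3 (-1.83 ± 0.04) and LOXL2 (-1.42 ± 0.04), which cross-link collagens, fell. LOXL4 had 1105, 992 and 1005 normalized counts with MAPKi against 28958, 24492 and 27409.9 in DMSO. Of 6 receptors, the collagen-binding integrin chain ITGA10 fell (-3.13 ± 0.13). Of 8 matrix partners, PRELP (2.16 ± 0.30) and NID1, which links type IV collagen to laminin (0.90 ± 0.08), rose and TNC (-1.35 ± 0.05) fell. Over the 5 lists 5 of 49 tested genes rose and 11 fell, against 16.4 and 17.4% of all genes.

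The Gln depletion experiment asked which mRNAs respond to a lack of glutamine. Of the 28 collagen genes tested, 1 rose and 2 fell past the 1.5-fold test, and 25 passed in neither direction. Over all 15900 genes tested, 3.21% were called higher and 1.65% lower. The median log2 fold change was -0.19 over the members and 0.02 over all genes. Replicates of the same number shared deviations from their group means, so the fit with the replicate number as a block is given beside these counts. It called 2 members higher and 2 lower, where 8.42 and 6.33% of all genes were called. Without the fold threshold, 1 member was higher and 4 lower without the block (8.84 and 6.96% of all genes), and 7 were higher and 7 lower with it (22.7 and 19.8%).

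COL5A3 (chr19:9959561-10010504, minus strand) was the member called higher. It had 415, 461 and 285 normalized counts in Gln-depleted cells and 129, 91.7 and 121 in CTRL medium, a 3.40-fold rise without overlap (log2 fold change 1.76 ± 0.29, edgeR quasi-likelihood test, Benjamini-Hochberg adjusted p = 0.00832). Exons of other genes cover 4.35% of its exon bases. COL14A1, a FACIT of dense connective tissue, fell from 54.0, 88.8 and 153 to 10.5, 11.7 and 16.7 (log2 fold change -2.92 ± 0.48). COL27A1 (chr9:114155537-114312511, plus strand) fell from 436, 449 and 510.4 to 173, 158 and 204 (log2 fold change -1.38 ± 0.23). For both, every Gln-depleted library was below every CTRL library.

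These calls rest on few libraries in fits without the block, where leaving out a library also breaks up a pair. With all libraries, the blocked fit also called COL5A3 higher and COL14A1 and COL27A1 lower. Without CTRL medium replicate 2, CTRL medium replicate 3 or Gln-depleted replicate 2, edgeR called 0 members in either direction, with 2, 2 and 5 higher and 6, 7 and 5 lower at an unadjusted p under 0.05. Over all genes the same fits called 208, 217 and 226 higher and 61, 85 and 64 lower, against 510 and 262 with all libraries. DESeq2 was run on all libraries only and called 1 higher and 2 lower. COL27A1's call was lost on leaving out any single library, at log2 fold changes from -1.51 to -1.30. Within experimental batch 2 the same counts of 1 higher and 2 lower were obtained.

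COL6A2 was called only in fits with the replicate block or with a term for the experimental batch. It had 2581, 1359.6 and 1094 normalized counts in Gln-depleted libraries against 1119, 621 and 501. The groups overlapped, CTRL medium replicate 1 lying above Gln-depleted replicate 3. Within pairs the log2 ratio was 1.21, 1.13 and 1.13, and the blocked fit gave 1.15 ± 0.12. COL6A1, COL4A1, COL4A2, COL4A4 and COL12A1 were likewise high in replicate 1. In CTRL medium, replicate 1 was 2.11, 1.69, 2.01, 2.43 and 3.52 times the mean of replicates 2 and 3 for these genes, and in Gln-depleted cells 2.41, 1.75, 2.24, 3.00 and 3.66 times. Experimental batch 1 consists of replicate 1 alone, so the batch and the replicate cannot be told apart.

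**Figure D4:**
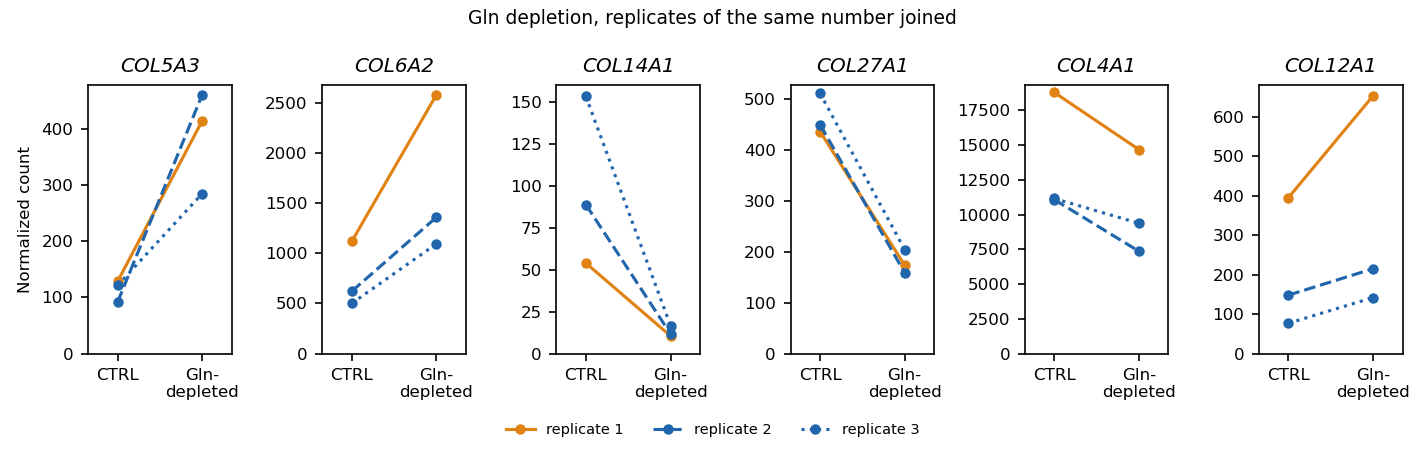
Normalized counts (vertical axes, from 0) of 6 collagen genes in CTRL medium and Gln-depleted libraries, with replicates of the same number joined and replicate 1, which is experimental batch 1, in orange. COL5A3 and COL6A2 rise and COL14A1 and COL27A1 fall in all 3 pairs, while COL4A1 and COL12A1 are highest in replicate 1 of both groups.

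Among the tested fibrillar genes, COL27A1, COL5A2, COL5A1, COL1A1 and COL2A1 were lower in all 3 pairs and COL5A3 was higher in all 3. Over all 28 tested members, 11 were lower and 8 higher in all 3 pairs, so such agreement also occurred outside the fibrillar class. How often it occurred over all genes was not counted. COL5A2 was at 807, 887 and 914 against 2378, 1649 and 1188 (log2 fold change -0.999 ± 0.27) and passed without the fold threshold. COL5A1 was at 139.7, 68.4 and 82.3 against 244, 166 and 188 (-1.04 ± 0.35) and COL1A1 at 15.8, 9.77 and 4.77 against 37.3, 23.9 and 17.0 (-1.34 ± 0.53), and both passed without the fold threshold only in the blocked fit. COL2A1 was at 10.5, 18.6 and 10.7 against 27.5, 19.1 and 35.7, with a log2 ratio of only -0.04 in pair 2, and passed in neither fit. COL24A1 and COL11A1 overlapped between groups, with log2 fold changes of -0.01 ± 0.46 and -0.12 ± 0.51.

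edgeR called 0 of the 5 tested type IV genes in either direction, with 1 higher and 0 lower at an unadjusted p under 0.05, and DESeq2 also called 0. The lone gene at that level was COL4A3, at 48.3, 19.5 and 16.7 against 16.7, 5.73 and 6.25 (log2 fold change 1.56 ± 0.61). Exons of MFF-DT cover 10.4% of the exon bases of COL4A3. The neighbouring COL4A4 was at 313, 104 and 105 against 322, 153 and 112. COL4A1, COL4A2 and COL4A5 had log2 fold changes of -0.38 ± 0.32, -0.21 ± 0.40 and -0.22 ± 0.38. With the block, COL4A3 (1.56 ± 0.39) and COL4A1 (-0.40 ± 0.12) passed against no change.

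Among the other types, COL8A1 was at 22.1, 22.5 and 46.5 against 243, 100.3 and 55.3, lower without overlap, and passed without the fold threshold (log2 fold change -2.13 ± 0.60). COL6A3, the α3 chain of type VI, was at 65.1, 26.4 and 20.3 against 12.8, 7.64 and 17.0 (1.57 ± 0.56), higher without overlap. COL9A3 was at 11601, 8253 and 11002 against 8229, 5409 and 6716 (0.60 ± 0.23) and COL19A1 at 8681, 12501 and 9828 against 6812, 8751 and 6901 (0.47 ± 0.21). These 3 genes and COL12A1 (0.71 ± 0.71) were higher in all 3 pairs, and all 4 passed against no change in the blocked fit only. COL6A1, COL7A1, COL9A1, COL9A2, COL13A1, COL15A1, COL16A1 and COL18A1 passed in neither fit, with log2 fold changes from -0.69 to 0.80.

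In the collagen-related lists, 4 of 50 tested genes rose and 2 fell with Gln depletion, against 3.21 and 1.65% of all genes. These lists, and the cell type markers below, were counted only in the fit without the replicate block. The collagen receptor DDR2 rose, from 4487, 6126 and 3595 to 14364, 21599.7 and 17105 normalized counts (log2 fold change 1.90 ± 0.26), as did the export factor MIA2 (2.38 ± 0.28) and the matrix partner THBS1 (1.40 ± 0.25, not called by DESeq2). BGN, another matrix partner, rose from 2.94, 1.91 and 3.57 to 44.1, 19.5 and 68.0 normalized counts. The prolyl 3-hydroxylase P3H3 (-1.66 ± 0.29) and the fibril-binding proteoglycan LUM (-2.21 ± 0.33) fell. Of the 8 processing and cross-linking genes, edgeR called 0 in either direction, with 4 lower and 0 higher at an unadjusted p under 0.05, and DESeq2 called 0.

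The responses to the treatments were compared directly as the difference of the log2 fold changes over all 12 libraries, MAPKi minus Gln depletion. The experiments have separate controls. edgeR's quasi-likelihood test found a difference for 16 of 28 members, where 36.1% of the 16072 genes tested differed, and for 20 of 28 with the replicate block (53.2% of all genes). Of the 16, 9 were more positive with MAPKi, a split that was not counted over all genes. The difference was 3.03 ± 0.67 for COL8A1, 2.68 ± 0.52 for COL24A1, 2.64 ± 0.39 for COL4A5, 2.62 ± 0.29 for COL5A2, 2.29 ± 0.38 for COL9A2, 2.24 ± 0.50 for COL14A1 and 2.23 ± 0.55 for COL1A1. COL16A1 (1.26 ± 0.18) and COL7A1 (1.52 ± 0.50) were also among the 9.

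The other 7 were more negative with MAPKi. The difference was -5.87 ± 0.99 for COL13A1, which had 64.1, 88.9 and 41.8 normalized counts in Gln-depleted and 72.6, 21.0 and 18.7 in CTRL libraries. It was -2.87 ± 0.90 for COL4A3, -2.34 ± 0.44 for COL15A1 and -2.22 ± 0.70 for COL2A1, and -1.73 ± 0.20, -1.58 ± 0.41 and -0.95 ± 0.29 for COL19A1, COL5A1 and COL5A3. For COL5A3 both experiments had a positive log2 fold change (0.78 with MAPKi and 1.76 with Gln depletion). Both values were negative for COL5A1 (-2.66 and -1.04), COL2A1 (-3.29 and -1.03) and COL15A1 (-2.94 and -0.56). Of the 9, COL14A1 was negative in both (-0.71 and -2.92). A difference here thus need not mean opposite directions. On leaving out each of the 12 libraries in turn, COL7A1 was not called in 8 fits, COL4A3 in 6, and COL2A1 and COL5A3 in 5 each, and these 4 did not pass against a difference of 1.5-fold. The other 12 genes were called in every one of these fits. COL27A1 was the member called in the same direction in both experiments, and its difference of -0.17 ± 0.21 did not pass (edgeR quasi-likelihood test, Benjamini-Hochberg adjusted p = 0.553). COL6A1 and COL4A2 had differences of -0.19 ± 0.51 and -0.001 ± 0.47, which did not pass either.

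**Figure D5:**
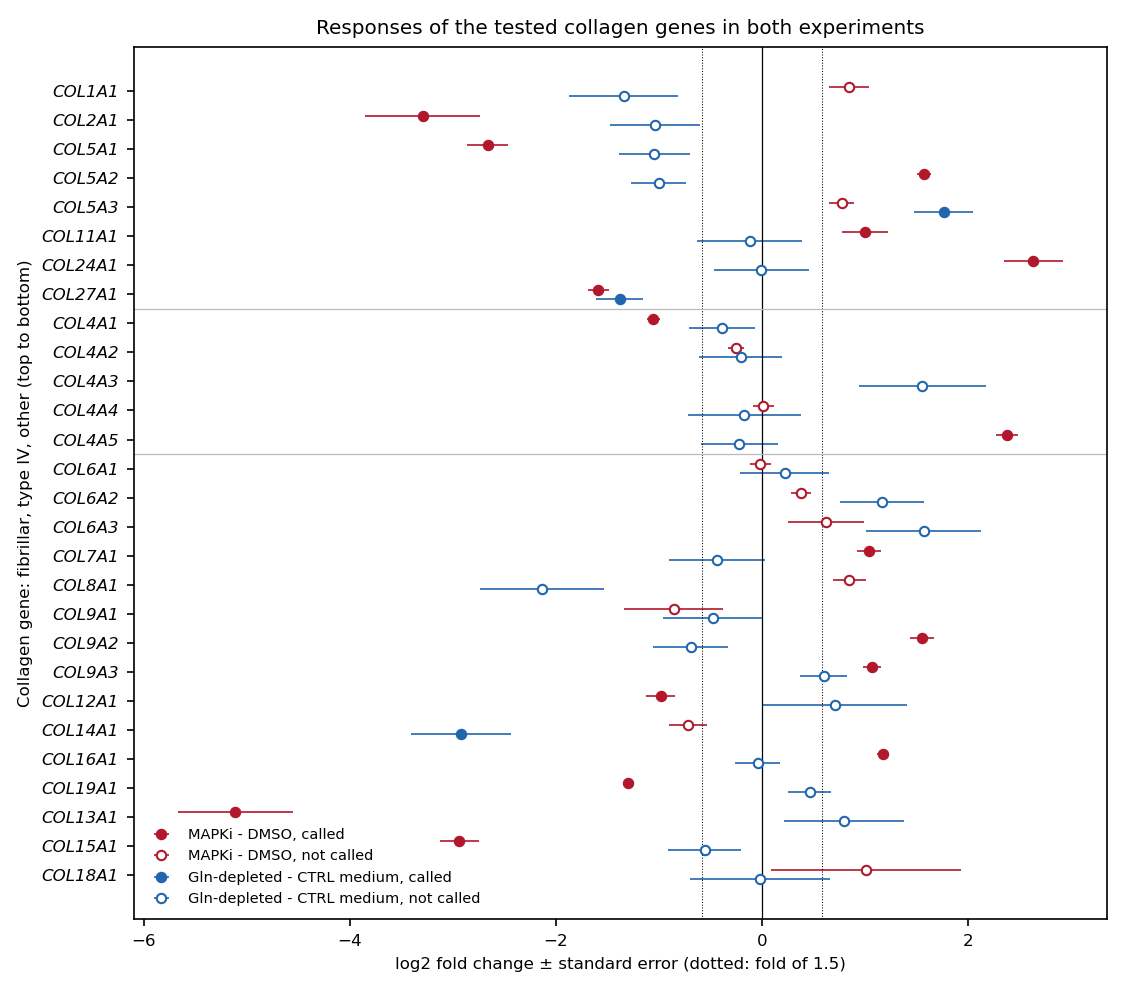
The log2 fold change with its standard error (horizontal axis) of the tested collagen genes, red for MAPKi minus DMSO and blue for Gln-depleted minus CTRL medium, filled where called against a fold of 1.5 (dotted lines). COL5A2, COL24A1 and COL4A5 lie at 1.58, 2.64 and 2.38 with MAPKi, and COL27A1 is filled on the negative side in both. The MAPKi values of COL13A1 and COL2A1 rest on 2 and 7 reads in the MAPKi libraries.

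Markers of other cell types were looked at because fibroblasts and endothelial cells make many collagens. Of the 8 melanocyte-lineage markers, SOX10, MITF, PMEL, MLANA, TYR, DCT, S100B and S100A1, all 8 were tested with MAPKi. There 5 rose and 1, S100B, fell (log2 fold change -2.12). With Gln depletion 7 were tested, and MITF fell (-2.33 ± 0.30). DCT, an enzyme of pigment synthesis, rose with MAPKi from 5601 to 8403 normalized counts to 244998 to 323852. Among 6 fibroblast markers, PDGFRB (1.87 ± 0.13) and FAP (1.63 ± 0.11) rose with MAPKi. LUM was at 463, 373 and 398 with MAPKi against 772, 569.6 and 633, lower without overlap, and passed only without the fold threshold (-0.68 ± 0.13), and PDGFRA overlapped (-0.12 ± 0.19). With Gln depletion PDGFRA rose in edgeR's but not in DESeq2's test (1.33 ± 0.23), LUM fell, and FAP was lower past the test of no change only (-1.69 ± 0.37). Summed over the 6, fibroblast markers had 2214 to 2244 normalized counts with MAPKi against 1227 to 1441 in DMSO, and 863 to 887 in Gln-depleted cells against 896 to 1403 in CTRL medium. THY1, from the same list, had 1 read in a CTRL medium library and none in the other libraries, and DCN was at 0 to 3.57 normalized counts. Of 4 endothelial markers, VWF rose with MAPKi (0.89 ± 0.10) in edgeR's but not in DESeq2's test, while PECAM1 and CDH5 each had 1 read in a MAPKi library and none elsewhere. Summed, the 4 endothelial markers had 289 to 320 normalized counts with MAPKi against 154 to 176, the 4 leukocyte markers 2.67 to 6.72 against 16.4 to 19.2, and the 4 epithelial markers 7.84 to 14.1 against 5.88 to 8.71. With Gln depletion these sums were 141 to 246 against 77.6 to 197, 0 to 9.45 against 7.85 to 16.2, and 16.8 to 25.4 against 3.57 to 4.90. The part of any other cell type in the collagen values was not tested.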

How the data were processed

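Human A375 cells were profiled by RNA-seq after rRNA depletion. The authors trimmed reads with fastp 0.20.1, aligned them to GRCh38.p13 with HISAT2 2.2.1 and counted them with HTSeq 0.13.5, per the labels' processing notes and the study's methods, and deposited raw counts per gene symbol. The strand setting is not given in the sources used here. All 12 value columns were used and 0 were left out. Samples were grouped by their titles.

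Counts were normalized (TMM) and fitted per experiment with edgeR 4.0.16 in R 4.3.3 (quasi-likelihood, no covariate beside treatment, mean normalized count of 10 or more). Calls required a change beyond 1.5-fold (0.585 on the log2 scale) with a Benjamini-Hochberg adjusted p no larger than 0.05. Printed adjusted p-values are from the test against no change in the same fits. DESeq2, the study's own tool, served as an alternative (version 1.42.0). The fits were tested on simulated counts. The members and lists were chosen with earlier results of these data known. Members called were given with the value in every library, at most 12 per experiment and the rest as ranges, and at most 3 called genes per list were named. Coordinates and coding sequences came from the GENCODE annotation of GRCh38, promoter windows from RefSeq (GRCh38.p14), both read with pandas in Python; RPKM values use the length of the canonical transcript.

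Deviations from the group means correlated between same-numbered libraries by 0.022, 0.049 and 0.011 in the MAPKi experiment. These libraries share numbers in their titles but were not taken as pairs, since they shared little deviation. In the Gln depletion experiment the deviations correlated by 0.502, 0.356 and 0.392. There the labels also tie replicate 1 of both groups to one experimental batch, and same-numbered libraries were taken as pairs. Replicates of a group differed beyond sampling noise in every pair (chi-square per degree of freedom 4.74 to 15.6 and 39.6 to 191). For genes with high counts, precision was therefore limited by this spread rather than by depth. Members with low counts were limited by depth as well. Intervals and limits of a count of 0 cover counting error only. Alternatives were other normalization, tool, filters and thresholds, a GC-content trend, a replicate block or batch term, all 12 libraries, and each library left out.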

Additional observations from a re-analysis of the deposited data

How the results depend on the processing

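No collagen gene called in an experiment changed sign under any alternative tried there, while 5 values of uncalled genes did with MAPKi and 26 with Gln depletion. With MAPKi, 6 to 12 members were called higher and 6 to 10 lower, except 5 lower at a mean count of at least 100, a filter that tests fewer genes. Leaving out one library gave 7 to 9 higher and 7 to 8 lower. COL11A1 lost its call with DESeq2, with genes of at least 2 reads, and with all 12 libraries in one fit. COL12A1 lost its call with DESeq2, and COL12A1, COL4A1 and COL7A1 with all 12 libraries. The cause was not tested. With the replicate block, 9 were higher, COL8A1 being the gene added, and 8 lower, though same-numbered libraries shared little deviation here.

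With Gln depletion, 1 higher and 2 lower became 2 higher with the replicate block, 2 higher with the block and the GC-content trend, and 2 higher with the experimental batch term, with 2 lower in each. The lower count was 4 without the fold threshold, 1 at a mean count of at least 100, and 4 with all 12 libraries. Leaving out one library, in fits without the block, gave 0 to 1 higher and 0 to 1 lower. Over all genes, 510 higher and 262 lower became 1338 and 1006 with the block, and 208 to 572 higher and 61 to 414 lower on leaving out one library.

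The difference between experiments held for 12 to 20 members (10 at a mean count of at least 100, 20 with the replicate block, 12 against the fold threshold, 12 to 18 on leaving out one library). Apart from the calls given here and in the report, the block changed no call of a member against the 1.5-fold threshold with Gln depletion. Among single-gene fold changes, 395 of the MAPKi values kept their side of the threshold, 15 newly passed and 11 no longer did, and with Gln depletion 469, 7 and 12. Depth limits the 16 members that were not tested, COL4A3 with MAPKi, and members with low counts in a group, among them COL13A1, COL2A1, COL24A1, COL9A1 and, with Gln depletion, COL1A1.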
